A study of Mus musculus with 8 samples.

Results

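Oxidative phosphorylation runs through complexes of the inner mitochondrial membrane that hold subunits from nuclear and mitochondrial genes. Complex I (NADH dehydrogenase) and complex II (succinate dehydrogenase) pass electrons to ubiquinone, complex III (cytochrome bc1) passes them on to cytochrome c, complex IV (cytochrome c oxidase) reduces oxygen, and complex V (ATP synthase) makes ATP from the proton gradient that complexes I, III and IV build. In T cells this pathway supports activation and memory, and succinate is itself a substrate of the chain through complex II. The genes described here are the nuclear genes of complexes I, III, IV and V, taken as protein-coding genes whose names start with Nduf (series a, b, c, s and v), Uqc, Cox4 to Cox8 or Atp5, with a count of at least 80 summed over the libraries. Of 54532 listed genes, 84 carried such a name and 78 met the count: 36 of complex I, 11 of complex III, 14 of complex IV and 17 of complex V. All 78 were among the 13981 genes tested. Complex II, whose genes carry other names, was left out.

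Splenic CD4+ T cells of mice labelled WT (wild type) were exposed over 3 days to dimethyl succinate, an ester of succinate that enters cells, or to vehicle, followed by bulk sequencing of messenger RNA. There were 4 libraries of each group, with 13407295 to 16688854 counts per library. The age and sex of the mice, the dose, the culture conditions and the source animal of each library are not stated in the labels. All p-values therefore refer to the spread between libraries, part or all of which may be technical. In bulk RNA, fewer cells of a type and less RNA per cell cannot be told apart.

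The CD4 T cell markers Cd3e, Cd3d, Trac and Cd4 summed to 1146 to 1211 CPM (counts scaled to library size) in dimethyl succinate libraries and 906 to 1158 CPM in vehicle libraries, the lowest in vehicle replicate 4. The 22 markers of other cells, of which 21 had a count, summed to 64.0 to 71.7 CPM in dimethyl succinate libraries and 58.1 to 70.8 CPM in vehicle libraries, and the plasmacytoid dendritic cell marker Siglech was at 0. Vehicle replicate 4 stood apart from the other libraries: its mean correlation with them was 0.981, against 0.989 to 0.991 for the other 7, and mitochondrially encoded genes held 0.252% of its counts, against 1.16% to 1.48%. Results are therefore given with it and without it. The mitochondrial share and the marker sum move with this library, and their part in the values below was not tested.

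The c subunit of ATP synthase, which forms the rotating ring in the membrane, is encoded by Atp5g1, Atp5g2 and Atp5g3. Their mature proteins are alike, so the last 90 coding bases are shown to let a reader see how far the transcripts differ where the proteins are most alike. Capitals mark the 24 positions at which the genes are not all identical, 5′ to 3′ on the coding strand, from GENCODE M21 transcripts and the GRCm38 genome.
Atp5g1 (chromosome 11): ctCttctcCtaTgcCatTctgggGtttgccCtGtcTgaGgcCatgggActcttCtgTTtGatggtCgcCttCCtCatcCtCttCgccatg
Atp5g2 (chromosome 15): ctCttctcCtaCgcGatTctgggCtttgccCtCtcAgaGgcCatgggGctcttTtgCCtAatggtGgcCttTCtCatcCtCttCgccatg
Atp5g3 (chromosome 2): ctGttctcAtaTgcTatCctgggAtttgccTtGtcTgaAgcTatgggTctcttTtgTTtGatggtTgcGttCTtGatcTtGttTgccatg
Over this stretch Atp5g1 was identical to Atp5g2 at 86.7% of positions and to Atp5g3 at 81.1%, and Atp5g2 to Atp5g3 at 74.4%. The longest identical run was 18 bases, shorter than the 50 bases taken here as a sequence window that a read could share.

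The windows of 120 bases before the starts of Atp5g2 and Atp5g3 are shown because these genes took opposite paths in vehicle replicate 4, described below. They are RefSeq promoter sequences of GRCm38.p6, 5′ to 3′ on the gene's strand, which is the minus strand for both. Capitals mark a match to the core motif bound by nuclear respiratory factor 1 (NRF1) in Atp5g2, and to AAGGTCA on the reverse strand, a site for estrogen-related receptors (ERR), in Atp5g3. Whether these motifs bear on the opposite paths was not tested.
Atp5g2, chr15:102671048-102671167: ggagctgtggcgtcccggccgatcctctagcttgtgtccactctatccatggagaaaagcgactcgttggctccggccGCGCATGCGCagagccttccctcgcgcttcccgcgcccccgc
Atp5g3, chr2:73911327-73911446: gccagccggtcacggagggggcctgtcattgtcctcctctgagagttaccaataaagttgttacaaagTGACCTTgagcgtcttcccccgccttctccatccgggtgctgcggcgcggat

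RefSeq promoters, from 250 bases before to 50 bases after the start, were matched for 66 of the 78 genes and for 27025 genes in all, and were searched on both strands. The NRF1 core was in 7.58% of the 66 genes and 1.07% of all genes. The motif AAGATGGCG of YY1, a zinc finger factor, was in 10.6% and 1.64%. The ERR motif AAGGTCA was in 12.1% and 5.38%, and CCGGAAGT, bound by ETS factors such as GABP, in 7.58% and 4.31%. At least 1 of these 4 motifs, which do not contain each other, was in 36.4% of the 66 genes and 11.9% of all genes. A match is a description of the letters in the window, not a binding site. The ERR motif was in Atp5e, Atp5g3, Atp5k, Atp5l, Ndufb2, Ndufb4, Ndufs5 and Uqcc3. The NRF1 core was in Atp5g2, Atp5k, Cox6a1, Ndufa11 and Uqcrc1. Whether either motif goes with the level in vehicle replicate 4 was not tested.

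Levels between genes were compared as FPKM (fragments scaled to gene length and library size), the authors' deposited values. The catalytic head of ATP synthase led the 78 genes: Atp5a1, its alpha subunit, averaged 299 ± 13.1 FPKM in dimethyl succinate libraries and 341 ± 81.6 FPKM in vehicle libraries, and Atp5b, the beta subunit that makes ATP, averaged 304 ± 13.9 FPKM in dimethyl succinate libraries and 329 ± 49.5 FPKM in vehicle libraries (SD, n = 4 each). In complex IV the highest was Cox6a1, the widely expressed isoform of its subunit, with 223 ± 16.8 FPKM in dimethyl succinate libraries and 241 ± 30.5 FPKM in vehicle libraries (SD, n = 4 each). In complex III it was Uqcrfs1, the Rieske iron-sulfur protein, with 99.6 ± 5.76 FPKM in dimethyl succinate libraries and 116 ± 24.2 FPKM in vehicle libraries (SD, n = 4 each). In complex I it was Ndufc2, an accessory subunit, by the mean of all 8 libraries. It had 93.7 ± 7.60 FPKM in dimethyl succinate libraries and 108 ± 26.6 FPKM in vehicle libraries (SD, n = 4 each). Ndufa2, another accessory subunit, had 89.1 ± 14.6 FPKM in dimethyl succinate libraries and 111 ± 34.0 FPKM in vehicle libraries, so it was the higher one in vehicle libraries. The neighbours in this order, Atp5a1 and Atp5b, lay closer to each other than the spread of either. So did Ndufc2 and Ndufa2, and in dimethyl succinate libraries Cox6a1 and Cox8a, the latter with 222 ± 14.7 FPKM.

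At the low end of the FPKM levels, Ndufb2, an accessory subunit of complex I, averaged 0.972 FPKM in dimethyl succinate libraries and 1.09 FPKM in vehicle libraries. Its listed length of 5628 bases is long beside the median of 1560 bases over the 78 genes, and FPKM divides by that length. Just above the count minimum were Cox7a1, the muscle-type isoform of its subunit, with a sum of 100 counts, and Cox4i2, the isoform linked to low oxygen, with 140. The 6 genes below it were Cox6a2 with 44 counts, Ndufa4l2 with 24, Cox8b with 3, and Cox8c, Cox7b2 and a second listing of Atp5o with 0 in all 8 libraries. A count of 0 allows up to 3 counts, or 0.224 CPM in the smallest library, for counting error only.

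As shares of the summed FPKM of the 78 genes, complex I held 30.7%, complex III 12.8%, complex IV 27.4% and complex V 29.0% in dimethyl succinate libraries, and 30.7%, 12.9%, 26.7% and 29.7% in vehicle libraries, as means of 4. Complex IV ranged from 27.4% to 27.5% in dimethyl succinate libraries and from 27.3% to 27.9% in vehicle replicates 1 to 3, and stood at 24.0% in vehicle replicate 4. Complex V ranged from 28.8% to 29.3% in dimethyl succinate libraries and from 28.6% to 29.1% in vehicle replicates 1 to 3, and stood at 32.4% in vehicle replicate 4. The proportions between complexes were thus close to each other in 7 of the 8 libraries. These shares depend on the listed gene length, with a median of 1120 bases in complex IV and 2039 bases in complex V. Summed CPM, which is not divided by length, averaged 3719 in complex V and 1914 in complex I in dimethyl succinate libraries.

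The question put to these genes was whether their transcripts differ after 3 days with dimethyl succinate, and no such difference was called. In edgeR's quasi-likelihood test over all 13981 genes, 0 of the 78 had an adjusted p below 0.05, against 0.0% of all genes, and the smallest adjusted p among them was 0.802. Without vehicle replicate 4 the count was also 0, against 0.186% of all genes (26 genes), with a smallest adjusted p of 0.527. At an unadjusted p below 0.05, 1 gene was higher, 1.28% of the 78 against 2.93% of all genes, and 1 was lower, 1.28% against 2.83% of all genes. DESeq2 called 0 of the 78, against 0.0286% of all genes (4 genes), with 1 higher and 2 lower at the unadjusted threshold, against 2.52% and 2.8% of all genes. Limma-voom called 0, against 0.0% of all genes, with 0 higher and 1 lower, against 3.23% and 2.78%.

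For 64 of the 78 genes the 95% interval of the fold change lay within 1.5-fold in both directions, and for 35 it lay within 1.25-fold. Without vehicle replicate 4 these counts were 70 and 65, as the median standard error of the log2 fold change was 0.075, against 0.11 with all 8 libraries. On simulated counts the test found 84.2% of the genes with a true change of 1.5-fold and 29.1% of those with 1.25-fold. Smaller differences would thus mostly be missed. The changed genes were drawn from those with a mean of at least 10 CPM, which 73 of the 78 genes reach. The simulated libraries were drawn independently, with none set apart as vehicle replicate 4 was. No gene of the 78 had groups that did not overlap, where 2.5% of all genes lay wholly higher and 2.32% wholly lower in dimethyl succinate libraries.

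**Figure D1:**
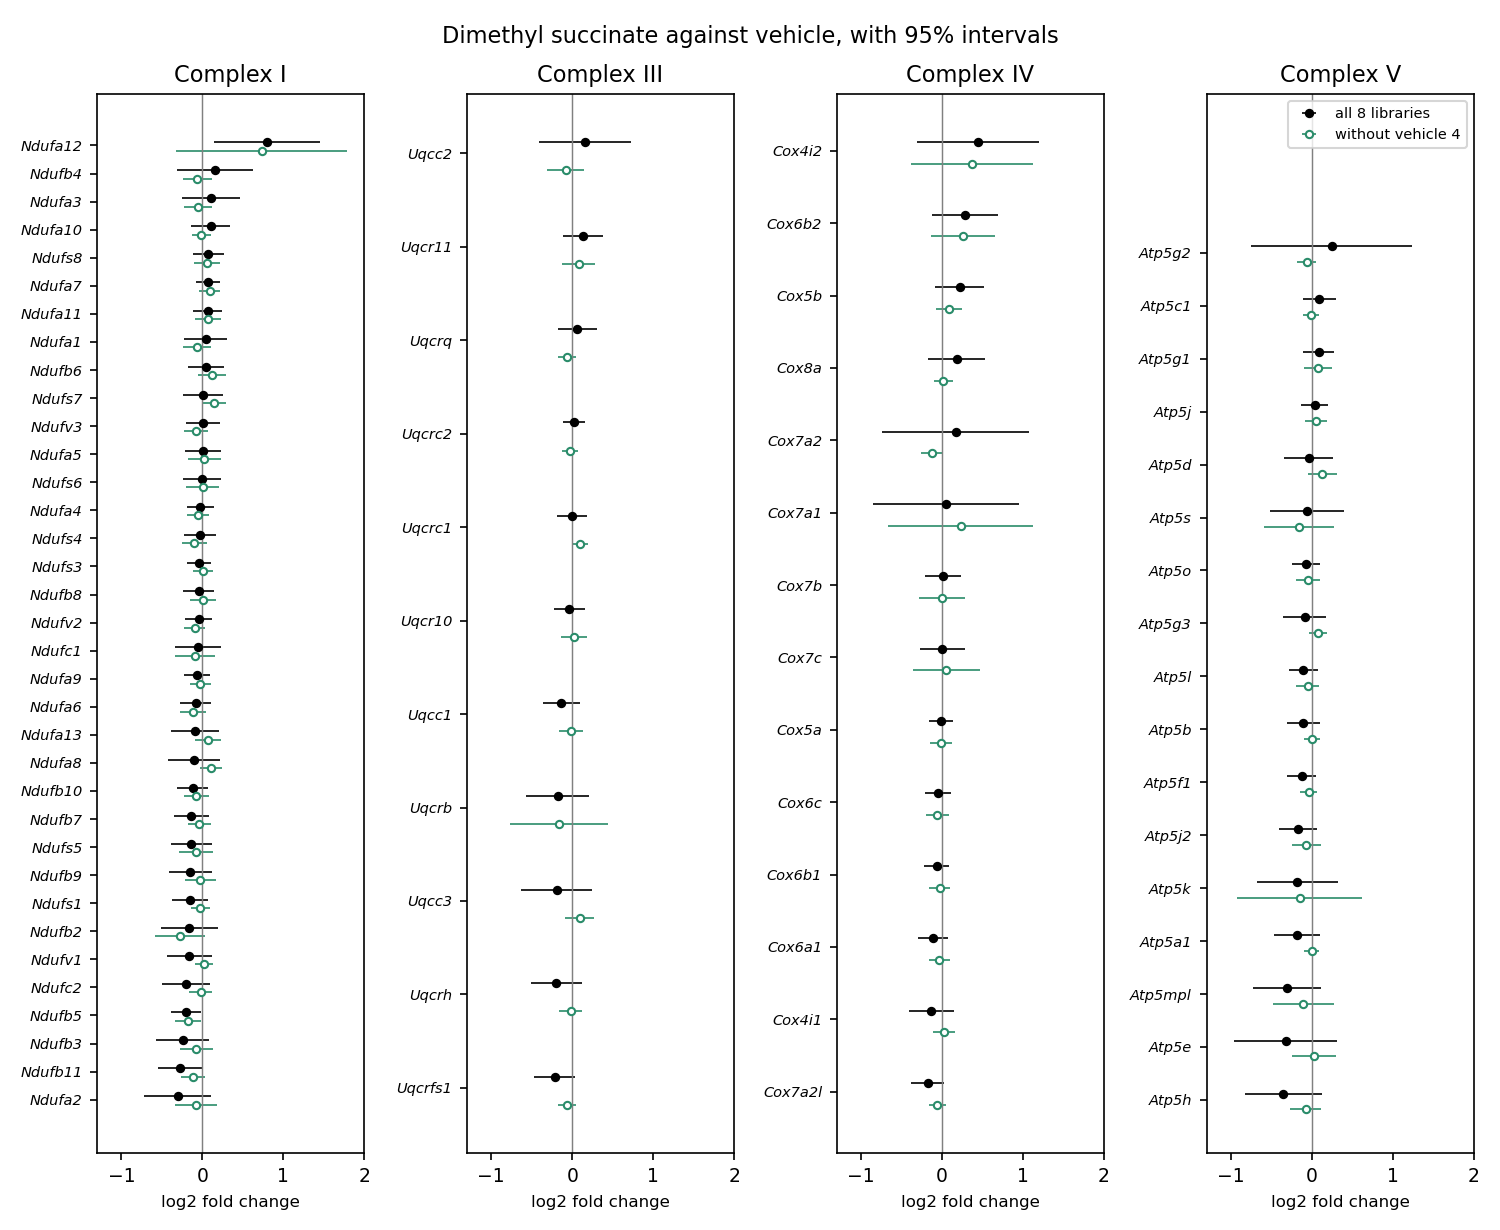
Log2 fold change of genes of each complex, dimethyl succinate over vehicle (horizontal axis), with 95% intervals from edgeR's fit. Filled points use all 8 libraries and open points leave out vehicle replicate 4. In the fit of all 8 libraries only the intervals of Ndufa12 and Ndufb5 leave 0, and many intervals are narrower without that library.

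The median log2 fold change was -0.046 over the 78 genes, -0.046 in complex I, -0.034 in complex III, 0.0086 in complex IV and -0.11 in complex V, beside -0.0011 over all tested genes. The share of genes with a log2 fold change above 0 was 28 of 78, or 35.9%, against 49.6% of all genes. By complex, 12 of 36 were above 0 in complex I, 4 of 11 in complex III, 8 of 14 in complex IV and 4 of 17 in complex V. Without vehicle replicate 4 the medians were -0.022 over the 78 genes, -0.026 in complex I, -0.019 in complex III, 0.0084 in complex IV and -0.039 in complex V, and 32 of 78 were above 0, or 41.0%, against 49.7% of all genes. The spread of the per-library median within groups, vehicle replicate 4 included, was 0.096 for the 78 genes and 0.15 for complex V (SD). Each SD is larger than the median log2 fold changes of the same set. It describes single libraries and is not the error of a difference between groups of 4.

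The summed level of complex V shows which library lay apart. It was 3736, 3594, 3596 and 3952 CPM in dimethyl succinate libraries, against 3588, 3812, 3726 and 4951 CPM in vehicle libraries. The 7 libraries other than vehicle replicate 4 overlap, and that library lies 1.33-fold above the mean of the other vehicle libraries. The ratio of group means, dimethyl succinate over vehicle, was 0.925 with all libraries and 1.003 without vehicle replicate 4.

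Complex I summed to 1920, 1851, 1840 and 2045 CPM in dimethyl succinate libraries, against 1848, 2011, 1903 and 2207 CPM in vehicle libraries. Complex III summed to 909, 865, 843 and 921 CPM in dimethyl succinate libraries, against 852, 922, 883 and 1044 CPM in vehicle libraries. Complex IV summed to 1240, 1179, 1164 and 1322 CPM in dimethyl succinate libraries, against 1183, 1291, 1233 and 1338 CPM in vehicle libraries. In each complex the groups overlap, and vehicle replicate 4 is the highest library. It lies above the mean of the other vehicle libraries by 1.15-fold in complex I, 1.18-fold in complex III and 1.08-fold in complex IV. Over all 78 genes the ratio of group means was 0.945, and 0.999 without that library.

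**Figure D2:**
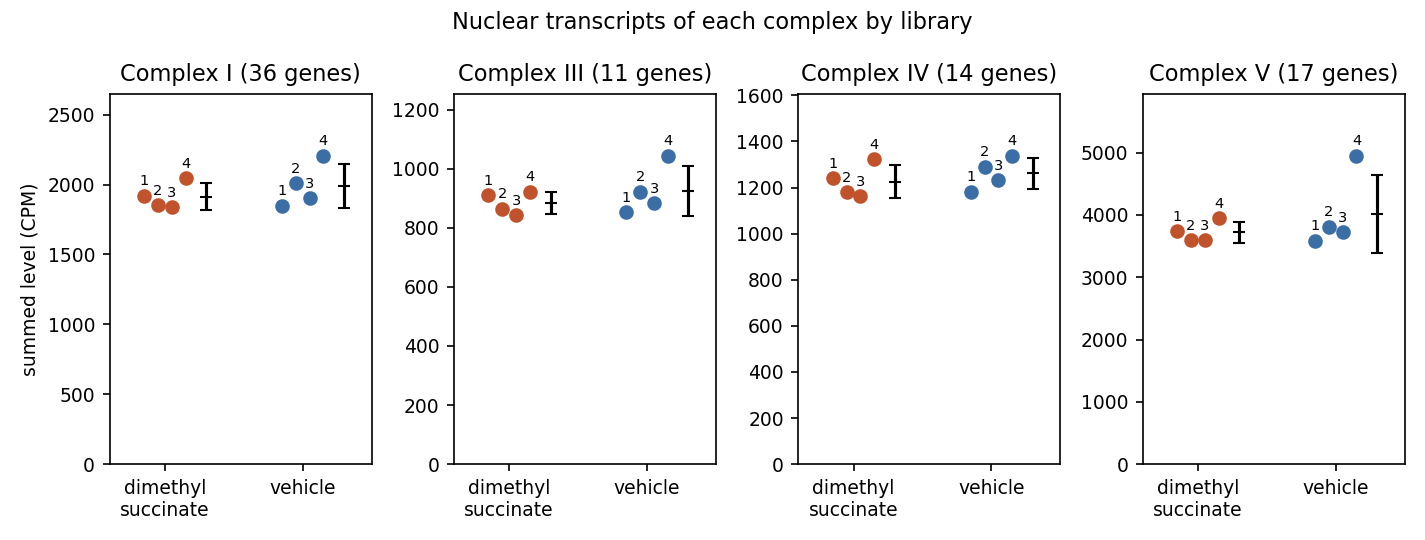
Summed CPM of the genes of each complex (vertical axis, from 0) in each library, dimethyl succinate left of vehicle, with replicate numbers beside the points. Bars give the mean and SD of 4 libraries. Vehicle replicate 4 is the highest point in every panel, farthest from the rest in complex V at 4951 CPM.

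The count of genes with lower values depended on dimethyl succinate replicate 4. It was the highest of its group in 48 of the 78 genes, 61.5% against 26.0% of all tested genes, with a median of 0.13 above the other dimethyl succinate libraries on the log2 scale. Without it, 8 of 78 genes were lower at an unadjusted p below 0.05, 10.3% against 2.57% of all genes, and 1 was higher, 1.28% against 2.55%. Without vehicle replicate 4 alone, 1 was lower, 1.28% against 4.16% of all genes, and 0 were higher, against 4.3%. Without both libraries numbered 4, a setting added after the data were seen, 8 were lower, 10.3% against 4.77%, and 2 were higher, 2.56% against 4.71%. The smallest adjusted p in that setting was 0.36, so no gene was called, and 6 genes were lower at the unadjusted threshold both there and without dimethyl succinate replicate 4 alone. They are Ndufb5, Ndufb11, Ndufa2, Atp5j2, Atp5k and Atp5mpl, picked after their values were seen: accessory subunits of complex I and small membrane subunits of complex V. All libraries of the smaller fit are also in the larger one, and both leave out dimethyl succinate replicate 4. The overlap is therefore no independent check. Without both libraries, 22 of 78 log2 fold changes were above 0. Among vehicle replicates 1 to 3, replicate 2 was the highest in 56 of the 78 genes, 71.8% against 33.8% of all tested genes. Its part in these counts was not tested. Leaving out dimethyl succinate replicate 1 gave 0 lower and 1 higher gene, where 2.03% and 2.3% of all genes were lower and higher. Dimethyl succinate replicate 2 gave 0 and 1, against 2.21% and 2.15% of all genes, and dimethyl succinate replicate 3 gave 0 and 0, against 2.1% and 2.05%. Leaving out vehicle replicate 1 gave 4 lower and 2 higher, against 3.63% and 3.24% of all genes. Vehicle replicate 2 gave 1 and 2, against 2.59% and 2.73%, and vehicle replicate 3 gave 2 and 1, against 3.43% and 2.95%.

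Among the accessory subunits of complex I, Ndufa12 had the smallest p and the largest difference. It stood at 15.1, 14.4, 33.6 and 34.2 CPM in dimethyl succinate libraries, against 14.2, 15.1, 14.7 and 11.9 CPM in vehicle libraries. Dimethyl succinate replicates 3 and 4 are high, and replicates 1 and 2 lie among the vehicle values, so the groups overlap. The log2 fold change was 0.80 ± 0.29 (SE), with an adjusted p of 0.802 in edgeR's test and an unadjusted p of 0.022. The exact two-sided permutation p was 0.114, where 0.0286 is the smallest this design allows. Without vehicle replicate 4 the log2 fold change was 0.73 with an unadjusted p of 0.139, and without dimethyl succinate replicate 3 it no longer passed the unadjusted threshold.

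Ndufa12, at chr10:94198720-94221443 on the plus strand of GRCm38, shares sequence with the processed pseudogene Gm15920 at chr5:130188395-130188796. Of the 50-base windows of Ndufa12 exons, 26.2% occur in Gm15920. The last 90 coding bases and the matching stretch of the pseudogene are shown because reads from here can be counted for either gene; they are identical at 89 positions, and the capital marks the 1 that differs.
Ndufa12: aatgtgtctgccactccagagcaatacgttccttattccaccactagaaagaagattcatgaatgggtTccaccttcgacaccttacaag
Gm15920: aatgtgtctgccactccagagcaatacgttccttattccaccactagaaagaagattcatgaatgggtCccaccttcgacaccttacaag
Counts of Gm15920 were 21.0, 17.6, 9.65 and 13.3 CPM in dimethyl succinate libraries, against 17.3, 26.0, 22.5 and 6.74 CPM in vehicle libraries. Among dimethyl succinate libraries the pseudogene is lower in the 2 where Ndufa12 is high, and it is also low in vehicle replicate 4. The sum of both genes was 36.1, 32.0, 43.2 and 47.5 CPM in dimethyl succinate libraries, against 31.5, 41.0, 37.2 and 18.6 CPM in vehicle libraries, with an exact two-sided permutation p of 0.257. The groups overlap in the sum as well, and whether the division of reads between these genes bears on the value of Ndufa12 was not tested.

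**Figure D3:**
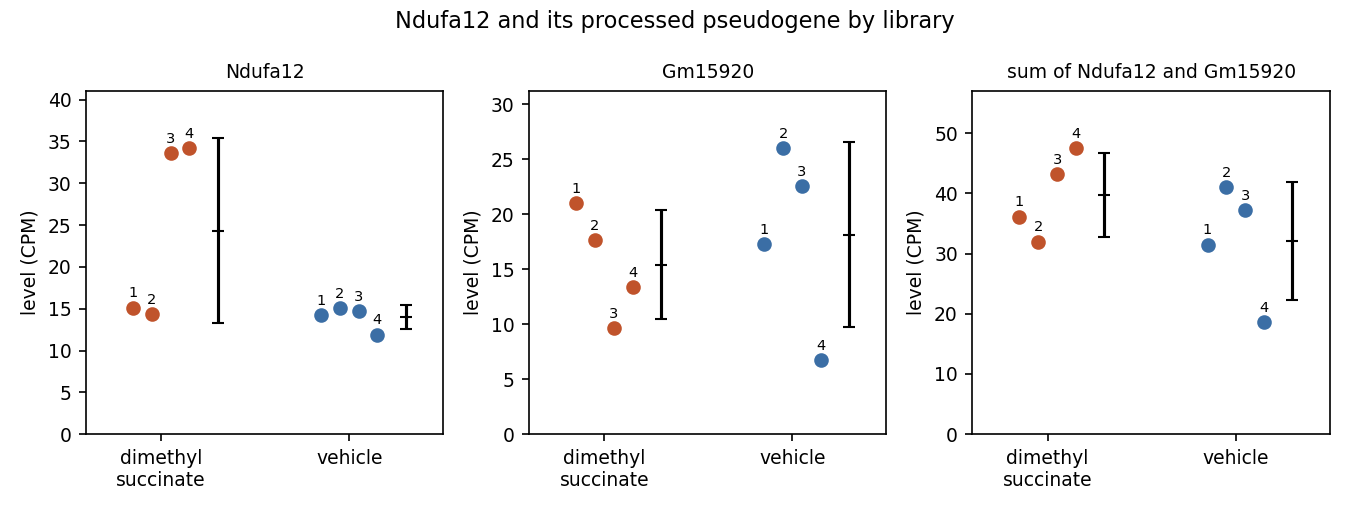
Levels in CPM (vertical axes, from 0) of Ndufa12, of its processed pseudogene Gm15920 and of their sum in each library, dimethyl succinate left of vehicle, with replicate numbers beside the points and bars for the mean and SD of 4 libraries. Ndufa12 is near 34 CPM in dimethyl succinate replicates 3 and 4 and near 15 CPM or lower in the other 6 libraries.

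Ndufb5, another accessory subunit, had the second smallest p in complex I. It stood at 37.4, 39.4, 39.8 and 44.1 CPM in dimethyl succinate libraries, against 43.3, 42.7, 50.3 and 48.9 CPM in vehicle libraries. Only dimethyl succinate replicate 4 reaches the vehicle range. The log2 fold change was -0.20 ± 0.084 (SE; adjusted p = 0.802 in edgeR's test, unadjusted p = 0.031), or -0.18 without vehicle replicate 4 (unadjusted p = 0.032) and -0.22 without both libraries numbered 4 (unadjusted p = 0.0092). Ndufb11, an X-linked accessory subunit, stood at 64.4, 59.4, 55.8 and 66.5 CPM in dimethyl succinate libraries, against 59.1, 71.0, 70.2 and 97.3 CPM in vehicle libraries, a log2 fold change of -0.28, or -0.12 without vehicle replicate 4. Of the Ndufb11 exon bases, 12.9% lie on the opposite strand of Rbm10 exons. Of the Ndufb5 exon bases, 12.3% lie on the opposite strand of other exons, mainly of Mrpl47. The labels do not state whether counting used strand.

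The 7 core subunits of complex I in the nuclear genome carry its flavin and iron-sulfur clusters or the quinone site. None passed the unadjusted threshold, and 2 of 7 had a log2 fold change above 0, or 5 of 7 without vehicle replicate 4. Ndufv1, which binds NADH, stood at 106.1, 99.7, 103.3 and 106.2 CPM in dimethyl succinate libraries, against 98.7, 103.1, 104.8 and 157 CPM in vehicle libraries. Ndufs1, the largest iron-sulfur subunit, stood at 87.8, 97.0, 87.2 and 97.0 CPM in dimethyl succinate libraries, against 96.0, 91.6, 94.4 and 129 CPM in vehicle libraries. In both genes vehicle replicate 4 alone is high. Their log2 fold changes were -0.16 each, or 0.022 and -0.026 without it. Ndufs3 had a log2 fold change of -0.038, Ndufs7, near the quinone site, 0.009, Ndufs8 0.075 and Ndufv2 -0.046. In the fit without vehicle replicate 4, Ndufs3 had 0.0055, Ndufs7 0.14 (unadjusted p = 0.066), Ndufs8 0.058 and Ndufv2 -0.094. Ndufa4, which keeps its complex I name although it is now placed in complex IV, had a log2 fold change of -0.027 (95% interval -0.20 to 0.14), or -0.057 without vehicle replicate 4.

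In complex III, Uqcrfs1 had the smallest p. It stood at 133.6, 134.6, 129.8 and 148 CPM in dimethyl succinate libraries, against 134.3, 147.6, 146.5 and 207 CPM in vehicle libraries. Vehicle replicate 4 is high and the other vehicle libraries lie within the dimethyl succinate range. The log2 fold change was -0.22 ± 0.12 (SE), or -0.065 without that library. Uqcrh, the hinge protein that contacts cytochrome c1, had -0.20, or -0.019 without it. The core proteins Uqcrc1 and Uqcrc2, which hold the matrix side of the complex, had -0.0064 and 0.019, and 0.096 and -0.023 without that library, so both signs turn. The assembly factor Uqcc1 had -0.13, or -0.015 without it.

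In complex IV, Cox7a2l, which encodes a protein that joins complexes III and IV into supercomplexes, had the smallest p. It stood at 209, 195.6, 182 and 195.3 CPM in dimethyl succinate libraries, against 204, 207, 199.7 and 274 CPM in vehicle libraries. Its log2 fold change was -0.18 ± 0.095 (SE), or -0.058 without vehicle replicate 4, the high library. Cox5b, a zinc-binding subunit on the matrix side, stood at 69.9, 62.4, 64.7 and 78.5 CPM in dimethyl succinate libraries, against 57.8, 67.1, 69.4 and 41.9 CPM in vehicle libraries. Here vehicle replicate 4 is the low library, and the log2 fold change was 0.22 ± 0.14 (SE), or 0.087 without it. The testis-type isoform Cox6b2 had 0.28 ± 0.19 (SE) at 3.45 to 6.25 CPM over the 8 libraries.

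In complex V, Atp5h, the d subunit of the stalk that holds the head still, had the lowest log2 fold change of the 78 genes at -0.35 ± 0.21 (SE). It stood at 63.7, 65.5, 64.4 and 85.0 CPM in dimethyl succinate libraries, against 68.6, 79.4, 72.1 and 135.0 CPM in vehicle libraries. Both libraries numbered 4 are high in their group. Without vehicle replicate 4 the value was -0.076, and without both libraries numbered 4 it was -0.18 ± 0.066 (SE), with an adjusted p of 0.36 in edgeR's test. Atp5mpl, a small membrane subunit, had -0.30 and Atp5f1, the b subunit of the stalk, -0.12, or -0.11 and -0.039 without vehicle replicate 4. The 4 small membrane subunits all lay below 0, from -0.30 to -0.11, and from -0.15 to -0.049 without vehicle replicate 4, with 0 past the unadjusted threshold in either fit.

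The catalytic head followed vehicle replicate 4. Atp5a1 stood at 961, 896, 921 and 993 CPM in dimethyl succinate libraries, against 935, 967, 929 and 1448 CPM in vehicle libraries. Atp5b stood at 1261, 1264, 1280 and 1388 CPM in dimethyl succinate libraries, against 1249, 1312, 1330 and 1702 CPM in vehicle libraries. Their log2 fold changes were -0.18 and -0.11, or -0.002 and 0.001 without that library, with 95% intervals then within 1.25-fold. Atp5c1, the gamma subunit of the rotating stalk, went the other way in vehicle replicate 4, with 164, 168, 165 and 164 CPM in dimethyl succinate libraries, against 159, 172, 169 and 121 CPM in vehicle libraries. Its log2 fold change was 0.090, or -0.013 without it.

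The deviation of vehicle replicate 4 was not the same in all complexes. On the log2 scale its median difference from the mean of vehicle replicates 1 to 3 was 0.31 in complex V, 0.22 in complex III, 0.13 in complex I and -0.027 in complex IV, beside -0.0030 over all tested genes. It was the highest of the 8 libraries in 38 of the 78 genes, 48.7% against 29.0% of all tested genes, and the lowest in 17, 21.8% against 29.4%. By more than 0.5 on the log2 scale, 18 genes were higher, 23.1% against 9.65% of all genes, and 10 were lower, 12.8% against 12.7%. The widest gaps upward were in Atp5e, the epsilon subunit of the head, with 177 CPM against 77.3 to 95.9 CPM in the other vehicle libraries, and in Uqcc3, an assembly factor of complex III, with 53.4 CPM against 25.4 to 32.5 CPM. The widest gaps downward were in Atp5g2, Cox7a2, Uqcc2 and Ndufb4. Uqcc2, an assembly factor of complex III, stood at 8.06 CPM against 17.7 to 25.4 CPM, and Ndufb4, an accessory subunit of complex I, at 10.6 CPM against 22.5 to 25.6 CPM. Atp5e, Uqcc2, Uqcc3 and Ndufb4 were picked after their values were seen.

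**Figure D4:**
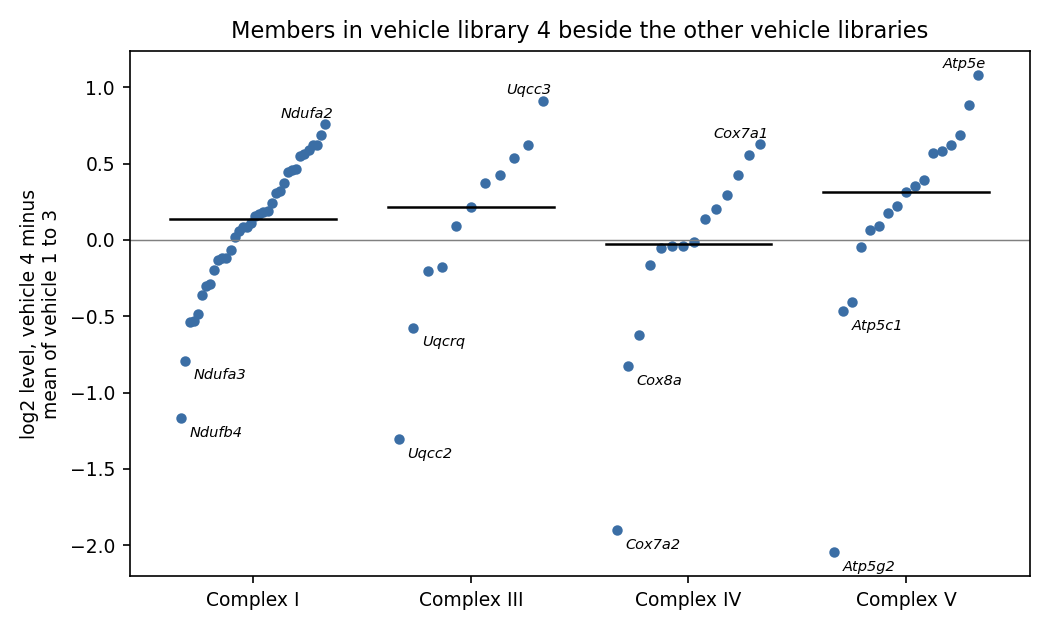
Difference in log2 level between vehicle replicate 4 and the mean of vehicle replicates 1 to 3 (vertical axis) for each of the 78 genes, sorted within each complex. Lines mark the median of each complex, 0.13 in complex I, 0.22 in complex III, -0.027 in complex IV and 0.31 in complex V, and the extreme genes are named.

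In 2 isoform sets the division between genes differed in vehicle replicate 4. Atp5g2 stood at 117, 109, 100.4 and 100.7 CPM in dimethyl succinate libraries, against 109, 115, 111 and 26.9 CPM in vehicle libraries. Atp5g3 stood at 200.5, 185, 178 and 207 CPM in dimethyl succinate libraries, against 178, 185, 184 and 271 CPM in vehicle libraries. Atp5g1 stood at 91.7, 70.9, 67.3 and 80.6 CPM in dimethyl succinate libraries, against 73.8, 71.7, 75.9 and 71.5 CPM in vehicle libraries. Only vehicle replicate 4 departs, with Atp5g2 low and Atp5g3 high, while Atp5g1 lies within the range of the others.

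Of the summed FPKM of the 3 c subunit genes, Atp5g2 held 35.1% to 39.6% in dimethyl succinate libraries, 39.8% to 40.8% in vehicle replicates 1 to 3 and 10.4% in vehicle replicate 4. Atp5g3 held 50.9% to 55.3% in dimethyl succinate libraries, 50.5% to 50.9% in vehicle replicates 1 to 3 and 80.2% in vehicle replicate 4. The sum itself was 179, 164, 154 and 170.2 FPKM in dimethyl succinate libraries, against 161, 167, 166 and 155 FPKM in vehicle libraries, so the total in vehicle replicate 4 lies within the range of the others. Gm10175, a processed pseudogene that holds 36.7% of the 50-base windows of Atp5g2, was also low there, at 0.417 CPM against 2.89 to 4.26 CPM in the other vehicle libraries. The log2 fold change of Atp5g2 was 0.24 ± 0.42 (SE) with all libraries and -0.061 without that library.

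The other was the COX7A set. Cox7a2, the widely expressed isoform, stood at 70.2, 61.7, 64.7 and 57.6 CPM in dimethyl succinate libraries, against 70.6, 67.8, 69.4 and 18.5 CPM in vehicle libraries. As a share of the family's FPKM it held 26.3% to 29.9% in dimethyl succinate libraries, 28.3% to 29.6% in vehicle replicates 1 to 3 and 7.52% in vehicle replicate 4, where Cox7a2l held 91.7%. Its log2 fold change was 0.17 ± 0.38 (SE), or -0.12 without that library (unadjusted p = 0.067). Cox8a, the only COX8 gene with more than 3 counts, also lay below its group in vehicle replicate 4, with 129, 114, 115 and 129 CPM in dimethyl succinate libraries, against 115, 123, 123 and 67.8 CPM in vehicle libraries.

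**Figure D5:**
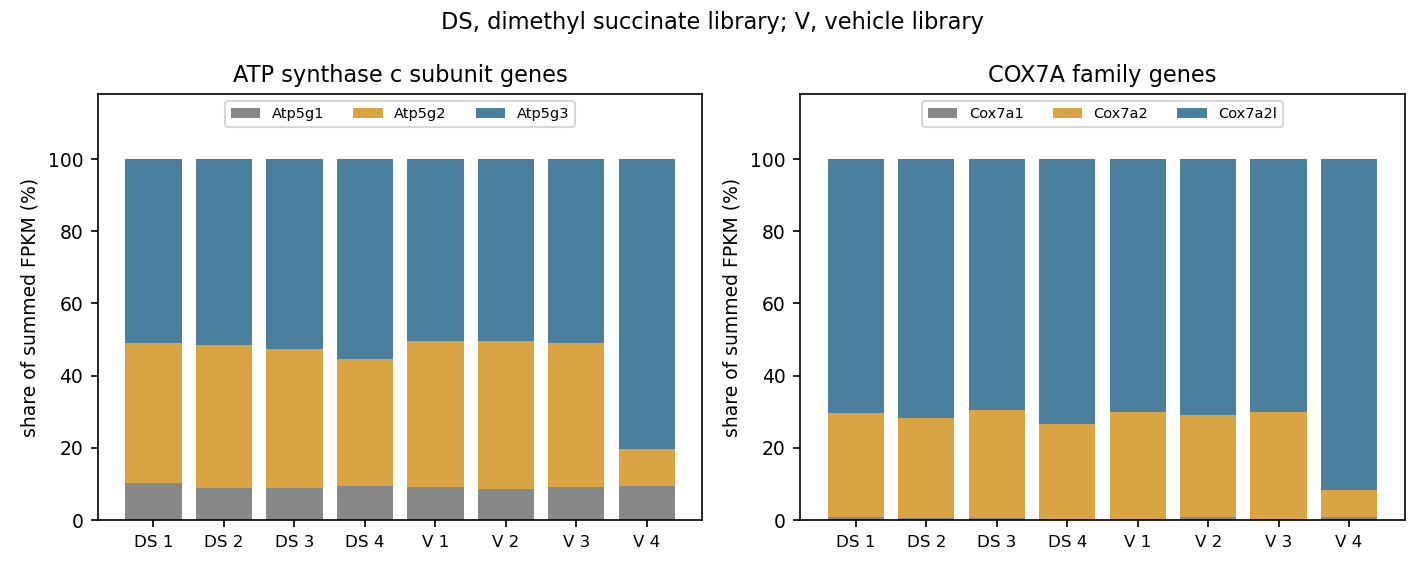
Share of the summed FPKM (vertical axis, percent) held by each c subunit gene and each COX7A family gene in every library, dimethyl succinate (DS) left of vehicle (V). The shares are alike in 7 libraries, and in V 4 Atp5g2 holds 10.4% and Cox7a2 7.52%.

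The other isoform sets were held by 1 gene in all libraries. Cox4i1 made up 98.9% ± 0.443 of its pair's FPKM in dimethyl succinate libraries and 99.2% ± 0.438 in vehicle libraries (SD, n = 4 each). Cox6a1 made up 99.8% ± 0.0828 in dimethyl succinate libraries and 99.7% ± 0.115 in vehicle libraries, and Cox6b1 made up 96.6% ± 0.516 in dimethyl succinate libraries and 97.3% ± 0.510 in vehicle libraries (SD, n = 4 each). Ndufa4 made up 99.7% ± 0.191 in dimethyl succinate libraries and 99.5% ± 0.358 in vehicle libraries (SD, n = 4 each). The muscle-type genes Cox6a2, Cox7a1 and Cox8b and the isoforms Cox4i2 and Ndufa4l2 therefore held little of their sets in both groups.

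The subunits that the mitochondrial genome encodes moved apart from the nuclear ones in vehicle replicate 4. Their summed level was 11666, 13320, 13007 and 10771 CPM in dimethyl succinate libraries, against 13798, 11883, 13848 and 2053 CPM in vehicle libraries. All 12 tested lay more than 0.5 lower on the log2 scale there than in the other vehicle libraries. The catalytic subunit of complex IV, mt-Co1, stood at 5202, 5744, 5620 and 4692 CPM in dimethyl succinate libraries, against 5996, 5112, 5939 and 1036 CPM in vehicle libraries. The median log2 fold change of the 12 was 0.18, with 9 above 0 and 0 past the unadjusted threshold in either direction. Without vehicle replicate 4 it was -0.16, with 0 of 12 above 0, and 2 of 12 were lower at the unadjusted threshold, against 4.16% of all genes. They were, picked after their values were seen, mt-Co3, a core subunit of complex IV, at -0.33 (unadjusted p = 0.00063, adjusted p = 0.121 in edgeR's test), and mt-Cytb, the cytochrome b of complex III, at -0.14 (unadjusted p = 0.044, adjusted p = 0.571).

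Genes that build the complexes were read from lists of assembly factors. Of 16 tested complex I assembly factors, 3 had a log2 fold change above 0, with 1 higher (Tmem186, at 0.19) and 0 lower at an unadjusted p below 0.05. Among all genes 49.6% were above 0, 2.93% higher and 2.83% lower. Of 19 for complex IV, 9 were above 0, with 0 higher and 2 lower, and of 8 assembly or regulatory proteins of complexes III and V, 5 were above 0, with 1 higher and 0 lower. Of 5 subunits and cytochromes whose names fall outside the rule, Cyc1 among them at -0.048, 0 were above 0 and 0 passed. Leaving out vehicle replicate 4, the complex IV list had 11 above 0, with 2 higher and 1 lower, the complex I list 6 above 0 with 0 higher and 0 lower, and the list for complexes III and V 5 above 0 with 1 higher and 0 lower. In that setting 49.7% of all genes were above 0, 4.3% higher and 4.16% lower. In edgeR's test none of the list genes reached an adjusted p below 0.05. The medians were -0.13, -0.024, 0.013 and -0.046 for these lists in turn, or -0.049, 0.026, 0.062 and -0.066 without vehicle replicate 4.

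The groups did not overlap in 5 genes of these lists: Tmem186 and Lyrm7 lay wholly higher in dimethyl succinate libraries, as 2.5% of all genes did, and Tmem126b, Cmc1 and Cox20 wholly lower, as 2.32% of all genes did. Tmem126b was picked after its values were seen. Cmc1, an assembly factor of complex IV, stood at 12.1, 14.1, 13.1 and 13.3 CPM in dimethyl succinate libraries, against 16.3, 18.4, 14.8 and 21.1 CPM in vehicle libraries, a log2 fold change of -0.43 ± 0.12 (SE; adjusted p = 0.753 in edgeR's test), or -0.33 without vehicle replicate 4. Cox20, a chaperone of the subunit COX2, stood at 2.05, 1.67, 1.83 and 1.91 CPM in dimethyl succinate libraries, against 2.89, 2.48, 2.24 and 5.69 CPM in vehicle libraries, at -0.83 ± 0.29 (SE), or -0.45 without that library. Lyrm7, which delivers the Rieske protein to complex III, stood at 6.07, 4.71, 4.70 and 5.10 CPM in dimethyl succinate libraries, against 3.52, 4.0, 3.73 and 3.06 CPM in vehicle libraries, at 0.52 ± 0.16 (SE; adjusted p = 0.802), or 0.45 without it. As the groups do not overlap in these 5 genes, leaving out a library cannot turn their direction, and a kept sign is no check.

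Of 14 tested regulators of mitochondrial genes, 6 had a log2 fold change above 0, with 1 higher and 0 lower at the unadjusted threshold, against 49.6%, 2.93% and 2.83% of all genes. Of the 14, 5 were above 0 without vehicle replicate 4, with 2 higher (Pprc1 and Polrmt) and 0 lower, against 49.7%, 4.3% and 4.16% of all genes. Polrmt, the RNA polymerase of mitochondria, picked after its values were seen, had a log2 fold change of 0.11, or 0.19 without that library (unadjusted p = 0.015). Pprc1, a coactivator that works with NRF1, stood at 199, 204, 199 and 189 CPM in dimethyl succinate libraries, against 179, 167, 175 and 181 CPM in vehicle libraries. Its groups do not overlap, and its log2 fold change was 0.17 ± 0.056 (SE; adjusted p = 0.802 in edgeR's test), or 0.19 without vehicle replicate 4 (unadjusted p = 0.00073). Nrf1 had 0.11 and Gabpa -0.057, or 0.072 and -0.056 without that library. Esrra, which encodes an ERR, had -0.16, or 0.024 without vehicle replicate 4, where it stood at 54.1 CPM against 32.9 to 38.3 CPM in the other vehicle libraries. Ppargc1b, a coactivator, had -0.055, or -0.012 without it. Tfam, the packaging and transcription factor of mitochondrial DNA, had -0.22, or -0.025 without vehicle replicate 4, where it stood at 96.6 CPM against 56.4 to 64.8 CPM in the other vehicle libraries. Ppargc1a, the best known coactivator of this gene program, was at 0 counts in all 8 libraries.

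Reads of several of the 78 genes can also belong to copies elsewhere. With 50-base windows, 37 genes shared at least 1 window with another gene, 17 shared more than 10% and 1 more than 50%, Atp5l with 68.5%. Atp5h shared 35.4% of its windows with the processed pseudogene Gm10250, which stood at 14.4 ± 2.27 CPM in dimethyl succinate libraries and 14.1 ± 6.64 CPM in vehicle libraries (SD, n = 4 each). Exons of 9 genes overlapped another gene on the opposite strand over more than 10% of their bases, and of 2 on the same strand. Levels of these genes are uncertain by the reads that the counting could have placed on either copy.

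Across the 78 genes, Spearman's rho between the log2 fold change and the GC content of the longest transcript was 0.18, and 0.39 without vehicle replicate 4, beside 0.13 and 0.25 over 13945 tested genes. With the listed gene length it was -0.089, and -0.063 without that library. These are descriptions across genes of the same libraries, which are not independent replicates.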

How the data were processed

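The authors deposited 1 table that gives the raw count of every gene in each library, as its headers say, and no column of per-sample values was left unused. It also holds FPKM values by the authors, group means that are taken here as a normalised signal because the deposited headers give no unit, and the authors' log2 fold changes and p-values; the group means, fold changes and p-values were not used. The submitters' processing notes name HISAT2 2.0.5; the counting tool, build and strand setting are not given in the sources used here. Coordinates follow GENCODE M21 on GRCm38.

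Genes were kept by filterByExpr in edgeR 4.0.16 (R 4.3.3), scaled by TMM factors and compared with the robust quasi-likelihood F test, 4 libraries against 4, two-sided, with Benjamini-Hochberg adjustment over 13981 genes at 0.05. Standard errors were derived from F, and 95% intervals from the fit's degrees of freedom. CPM used TMM-scaled library sizes, and log2 CPM a prior count of 2. Single values had exact permutation tests over the 70 ways to divide the libraries. DESeq2 1.42.0, limma 3.58.1 (voom, and trend on FPKM with pseudocounts of 1 and 0.1), other scalings and filters, a gene length offset, a replicate block and each library left out were alternatives. The test was tried on simulated counts with known changes. Libraries held 13407295 to 16688854 counts, and no pair of replicates was as close as counting noise.

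The genes and lists were chosen with earlier results of these data known. The text names, per complex, the 3 genes with the smallest p, the 3 with the highest FPKM and the lowest, besides the isoform sets, catalytic subunits, up to 3 genes of each list and 7 fixed genes; some genes within this rule are not reported here by name. Sequence windows of 50 bases were compared between GENCODE transcripts.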

Additional observations from a re-analysis of the deposited data

Results flagged for a closer look

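Within each group of 4 libraries, the gap between an extreme library and its nearest neighbour was divided by the range of the group, and values above Dixon's 95% critical value for 4 values were singled out. Of 102 groups examined, over the named genes and the summed levels, 18 passed. Chance gives about 1 in 20 for independent groups, but these groups come from the same libraries. The share of all tested genes that pass this rule was not computed. Vehicle replicate 4 was the highest library in 29.0% and the lowest in 29.4% of all tested genes, so its flags are not particular to these genes. Vehicle replicate 4 was the extreme library in 13 of them, high in 9 and low in 4. It was high in Atp5a1 (0.927), Atp5g3 (0.932), Cox7a2l (0.901), Uqcrc1 (0.901), Ndufv1 (0.896), Ndufs1 (0.885), Atp5d (0.846), Atp5h (0.836) and the summed CPM of complex V (0.836). It was low in Cox7a2 (0.946), Atp5g2 (0.936), Uqcrc2 (0.895) and Cox8a (0.850). Uqcrc2, a core protein of complex III, stood at 166 CPM in vehicle replicate 4.

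Dimethyl succinate replicate 4 was high in Cox6b1 (0.918), Atp5h (0.914) and Atp5b (0.851). Dimethyl succinate replicate 1 was high in Atp5d (0.837), at 277 CPM. Vehicle replicate 1 was high in Cox4i2 (0.830), at 1.62 CPM.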

How the results depend on the processing

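No member was called at an adjusted p of 0.05 under any alternative. The medians moved by less than the spread between libraries in every alternative, although that of complex IV, near 0, changed sign with limma-voom, both FPKM fits, the stricter filter, the replicate block, without vehicle replicate 1, without vehicle replicate 3, without dimethyl succinate replicate 4 and without both libraries numbered 4, and that of complex III without dimethyl succinate replicate 2. At an unadjusted p below 0.05, where all libraries gave 1 higher and 1 lower, DESeq2 gave 2 lower, limma-voom 0 higher, and no low-count filter 0 higher and 3 lower (3.18% and 2.69% of all genes). With title numbers entered as a replicate block there were 0 higher and 8 lower, against 3.55% and 3.51% of all genes. No label says that a number marks a shared animal or day, so the numbers were not taken to pair the samples. Correlations of same-numbered libraries ran from -0.014 to 0.13, the highest for those numbered 4, and other pairs from -0.118 to 0.086. Leaving out each library in turn gave 0 to 2 higher and 0 to 8 lower, and leaving out both numbered 4 gave 2 higher and 8 lower. The cause of these shifts was not tested. Of 1330 values of 67 named genes under the alternatives, 53 moved by at least 1 standard error, 27 of them without vehicle replicate 4, and 0 passed the adjusted threshold. Depth limits the lowest genes, Cox7a1 and Cox4i2, whose standard errors were 0.42 and 0.35.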
